A study of Mus musculus with 64 samples.

Results

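The sarcomeric thin filament was followed through 10 of the 39152 named genes that had been measured in mouse ventricles. They were chosen by symbol as the striated alpha actins (Acta1 and Actc1), the troponin I, troponin T and troponin C subunits (Tnni1, Tnni3, Tnnt1, Tnnt2 and Tnnc1) and the tropomyosins (Tpm1, Tpm2 and Tpm3). RNA had been sequenced from the right (RV) and the left ventricle (LV) of each of 32 C57BL6 mice, 64 libraries in all. An animal is named by its group and its number in the labels. All animals carried Pkp2 fl/fl alleles of plakophilin-2, a desmosomal protein whose loss causes arrhythmogenic right ventricular cardiomyopathy. The 9 WT animals lacked the αMyHC-Cre-ER(T2) transgene and received the vehicle HBSS. The 4 cKO animals carried this tamoxifen-inducible Cre, which the cardiac myosin heavy chain promoter drives in cardiomyocytes, and also received HBSS. The other groups carried the same Cre and received 1 dose of AAV9:mPkp2, a vector with mouse Pkp2: 8 AAV_3E13 animals at 3e13 vector genomes (vg) per kg, 5 AAV_1E14 animals at 1e14 and 6 AAV_1E14_2.5wk animals at 1e14. According to the paper, tamoxifen was injected into the animals with Cre to delete Pkp2, and its methods do not say outright whether WT animals received it. By label the vector of AAV_3E13 and AAV_1E14 was given 1 week ahead of tamoxifen and that of AAV_1E14_2.5wk 2.5 weeks after it. The descriptions of the study are not uniform on the early dose, and some figure legends place it 1 week after induction. WT and vector-treated hearts were collected about a year after induction and cKO hearts within weeks of it, so the genotype and the age of the cKO group cannot be told apart. Other cells of the heart kept Pkp2 in all groups, since Cre acted in cardiomyocytes.

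In the thin filament, actin forms the strand, tropomyosin lies along it, and the troponin complex sets the position of tropomyosin: troponin C binds calcium, troponin I holds the filament off at low calcium, and troponin T ties the complex to tropomyosin. The adult mouse ventricle uses Actc1 (cardiac alpha actin), Tnni3 (cardiac troponin I), Tnnt2 (cardiac troponin T), Tnnc1 (troponin C of heart and slow muscle) and Tpm1 (alpha tropomyosin). Acta1 is the alpha actin of skeletal muscle and is also expressed in the fetal heart, Tnni1 is the slow skeletal troponin I that the fetal heart uses, Tnnt1 is slow skeletal troponin T, and Tpm2 and Tpm3 are the beta and gamma tropomyosins. Tpm3 also gives short cytoskeletal tropomyosins in many cells.

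The regulatory sequence that is best known in this family is the CArG box, which the serum response factor SRF binds in muscle promoters. It was searched in the 250 bases before each RefSeq gene start on GRCm38.p6, a build that differs from the build of the counts. All 10 genes were matched, with 13 promoters, and the box was present in 2 of them, those of the striated actins. Of all 32851 promoters in the RefSeq table, 482 (1.47%) held it. The searched pattern matches on either strand, although the letters of a match can differ between the strands. Both sequences are printed on the minus strand, which is the coding strand of both genes, with the box in capitals.
Acta1, chr8:123894776-123895025: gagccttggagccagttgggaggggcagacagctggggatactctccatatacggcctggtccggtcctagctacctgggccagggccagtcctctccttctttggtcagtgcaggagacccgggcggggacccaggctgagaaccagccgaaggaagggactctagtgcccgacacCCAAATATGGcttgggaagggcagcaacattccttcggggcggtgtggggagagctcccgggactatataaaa
Actc1, chr2:114052876-114053125: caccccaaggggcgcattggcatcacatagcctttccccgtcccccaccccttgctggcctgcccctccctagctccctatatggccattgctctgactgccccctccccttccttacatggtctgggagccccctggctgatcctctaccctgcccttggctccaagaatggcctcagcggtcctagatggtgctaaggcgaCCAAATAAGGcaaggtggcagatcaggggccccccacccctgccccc
The box began 73 bases before the gene start in Acta1 and 47 bases before it in Actc1. A match in these letters is not a measured binding site. Both actins therefore share this element, and their levels are set side by side in the comparisons of groups.

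Counts used for testing ranged from 5341792 to 10238813 per library after the mitochondrially encoded genes, which took 16.6% to 40.2% of the counts, were removed. Levels are given as CPM, which are counts scaled to library size with TMM factors over all 64 libraries, and levels of different genes are compared only as TPM, which is per transcript length. Pkp2 was read first as a check of the labels. It had 38.7 to 100.1 CPM in cKO RV against 123 to 185 in WT RV, and 34.9 to 88.3 in cKO LV against 162 to 220.0 in WT LV (exact two-sided permutation test, p = 0.0014 in each ventricle). In the vector groups it averaged 296 CPM in AAV_3E13 RV, 1302 in AAV_1E14 RV and 1927 in AAV_1E14_2.5wk RV, and 300.3, 1415 and 2320 in LV, and reads of the vector and of the endogenous gene cannot be told apart. Xist and 4 Y-linked genes gave the same sex for both ventricles in all but 1 of the 32 animals: AAV_1E14_2.5wk_5814 had 263 CPM of Xist and 298 of Y-linked genes in RV, but 3064 and 0 in LV. The sum of 6 atrial markers was highest of its class in RV of WT_5819 (751 CPM) and in LV of AAV_1E14_2.5wk_5810 (1281), and values without these 3 animals are given where they change a call. The 10 markers of skeletal muscle, a tissue that could bring Acta1, Tnni1 or Tnnt1 into a heart sample, summed to between 4.06 and 26.2 CPM over all libraries. Per class of group and ventricle, 0 to 4 of these 10 were at 0 in all libraries, and the others were detected. Myh4 was the one most often at 0, in 6 of the 10 classes. The part of skeletal muscle in the low members was not tested.

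Per transcript length the adult cardiac members were among the most abundant nuclear transcripts of the ventricle, while the fetal and skeletal members were minor. In mean TPM over the 64 libraries Tnni3 ranked 9 and Actc1 10 among 39115 genes, with Tpm1 at 17, Tnnt2 at 19 and Tnnc1 at 26. Tpm3 ranked 617, Acta1 1615, Tpm2 5580, Tnnt1 8638 and Tnni1 15983. In WT LV the medians ran from 11361 TPM for Tnni3 through 7131 for Actc1, 5676 for Tpm1, 4030 for Tnnt2 and 2829 for Tnnc1 to 115 for Tpm3, 40.1 for Acta1, 19.9 for Tpm2, 9.51 for Tnnt1 and 0.132 for Tnni1. Neighbours in that order overlapped in their ranges over the 9 animals, except at the steps from Tnnt2 to Tnnc1, from Tnnc1 to Tpm3, from Tpm2 to Tnnt1 and from Tnnt1 to Tnni1. In WT RV the order of the first 5 was Tnni3 (8636 TPM), Actc1 (4194), Tnnt2 (4173), Tpm1 (2880) and Tnnc1 (1485). Salmon divides reads that fit several transcripts, and the coding sequences of Acta1 and Actc1 are nearly identical, so the low Acta1 values next to abundant Actc1 are uncertain to that extent.

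On GRCm39 the 10 genes lie on 8 chromosomes. Tnni1 (chr1:135707172-135738727) and Tnnt2 (chr1:135763738-135780315) are neighbours on the plus strand, and Tnnt1 (chr7:4507567-4519381) and Tnni3 (chr7:4521300-4527228) are neighbours on the minus strand, so each pair joins a troponin I and a troponin T gene. Acta1 is at chr8:124618501-124623661 and Actc1 at chr2:113876266-113884043, both on the minus strand, and Tnnc1 is at chr14:30930232-30933708 on the plus strand. Tpm1 (chr9:66929870-66956953) and Tpm2 (chr4:43514697-43524949) are on the minus strand and Tpm3 (chr3:89979949-90008226) on the plus strand. Counts were summed over all transcripts of a gene.

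**Figure D1:**
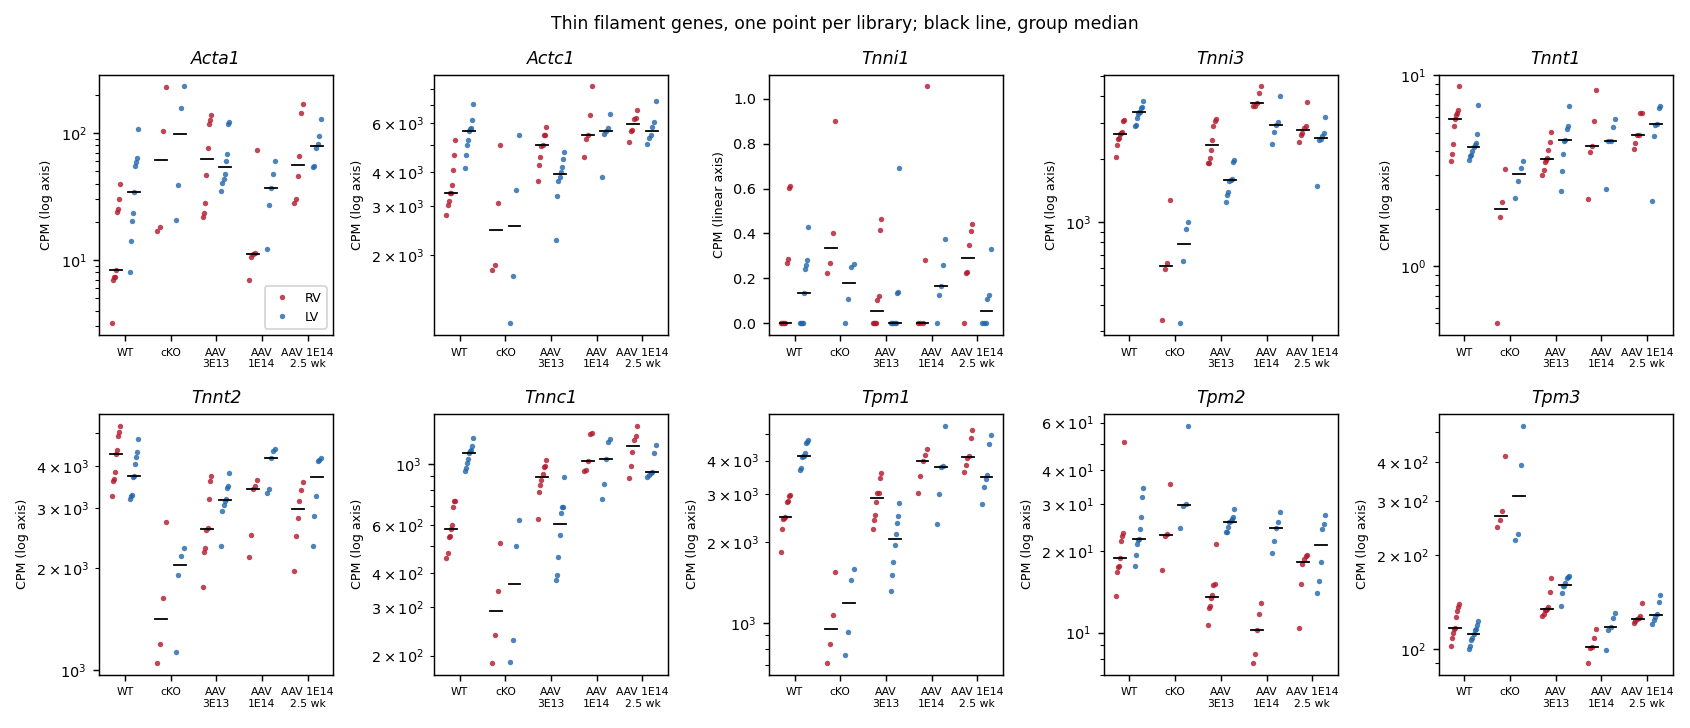
Level of each thin filament gene in CPM (log axis, linear for Tnni1) by group, with 1 point per library (red, RV, and blue, LV) and a black line at each group median. Tnni3, Tnnt2 and Tpm1 of the cKO libraries lie below all WT libraries of the same ventricle and Tpm3 lies above them, and the Acta1 points of most groups spread widely.

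The first comparison asked how the thin filament transcripts of untreated cKO ventricles differed from WT. In both ventricles the adult cardiac troponins Tnni3, Tnnt2 and Tnnc1 and the alpha tropomyosin Tpm1 were lower, and Tpm3 was higher. Acta1 was higher in RV, Actc1 was lower in LV, and Tnnt1 was lower in RV. With edgeR, 2 of the 9 members with enough counts to be tested were higher and 5 lower in RV, while over all genes 22.0% were called higher and 20.3% lower (42.3% in either direction). In LV 1 was higher and 5 lower, against 23.6% and 23.0% of all genes (46.6% in either direction). The median log2 difference of the 9 members was -0.87 in RV and -0.92 in LV, and that of all genes tested was 0.02 and 0.05. Tests were edgeR quasi-likelihood tests with Benjamini-Hochberg adjustment over all genes, in each ventricle alone, and every adjusted p below comes from such a fit. The unequal-variance test on log2(TPM + 1) called only Tnnt2, Tpm1 and Tpm3 in RV and Tnnt2 and Tpm1 in LV. By it the calls of Tnni3, Tnnc1, Acta1 and Tnnt1 in RV and of Tnni3, Tnnc1, Actc1 and Tpm3 in LV were lost. How many of all genes lost a call by this test is not given here. Tnni1 passed the filter on low counts in no comparison.

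Acta1, the skeletal alpha actin, had 16.8, 18.3, 103.5 and 231 CPM in the 4 cKO RV libraries, against 3.17 to 39.7 (median 8.27) in the 9 WT RV libraries. In LV the 4 cKO animals had 20.7, 38.7, 158 and 232 CPM and WT 8.04 to 107 (median 34.6). The cKO group split in both ventricles: cKO_3213 and cKO_3217 were above all WT libraries of the same ventricle, and cKO_2006 and cKO_2052 lay within the WT range. The log2 difference was 2.46 (SE 0.66, adjusted p = 0.0071) in RV and 1.37 (SE 0.62, adjusted p = 0.080) in LV. Without cKO_3213 the RV difference was 1.46 (adjusted p = 0.087), and without cKO_2006 or cKO_2052 the LV difference was 1.72 or 1.66 (adjusted p = 0.032 and 0.049). cKO_3213 and cKO_3217 were the 2 cKO animals with reads of Y-linked genes, and the part of sex in the split was not tested. Among WT animals the 4 with Y-linked reads had 7.34 to 29.9 CPM of Acta1 in RV and the 5 with Xist 3.17 to 39.7.

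Actc1, the cardiac alpha actin, had 1768, 1844, 3077 and 4983 CPM in cKO RV and 2804 to 5208 (median 3364) in WT RV. In cKO LV it had 1133, 1684, 3434 and 5442 CPM, and in WT LV 4123 to 7045 (median 5601). Again cKO_2006 and cKO_2052 were the low ones, below all WT libraries of the same ventricle, and cKO_3213 and cKO_3217 were the higher ones. In LV the lower of cKO_3213 and cKO_3217, at 3434 CPM, also lay below all WT libraries. The log2 difference was -0.32 (SE 0.26, adjusted p = 0.33) in RV and -0.92 (SE 0.32, adjusted p = 0.029) in LV. Leaving out cKO_3213 gave -0.71 in RV (adjusted p = 0.019), and leaving out cKO_2006 or cKO_2052 gave -0.65 or -0.73 in LV (adjusted p = 0.065 and 0.094). So the calls of both actins changed with the choice of cKO animals.

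Among the troponin genes the cardiac troponin I gene Tnni3 had the largest fall. Its 4 cKO RV libraries had 338, 597, 641 and 1273 CPM against 2047.7 to 3089 (median 2631) in WT, and its 4 cKO LV libraries 328, 651, 930 and 999.8 CPM against 2884 to 3786 (median 3370). All cKO libraries lay below the whole WT range of their ventricle. The log2 difference was -1.87 (SE 0.27, adjusted p = 7.17e-05) in RV and -2.21 (SE 0.25, adjusted p = 8.11e-06) in LV, a level 3.64 times and 4.63 times lower. Tnni1, the fetal troponin I, had 0.226, 0.269, 0.401 and 0.901 CPM in cKO RV and 0 to 0.611 in WT RV. In cKO LV it had 0, 0.108, 0.251 and 0.266 CPM, and over all 64 libraries it did not exceed 1.05 CPM and was at 0 in 27. Tnni1 was not tested. Its values rest on 2 to 9 counts per library in cKO RV, where it was at 0 in 0 of 4 libraries, and on 0 to 5 in WT RV, where it was at 0 in 5 of 9.

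Cardiac troponin T, Tnnt2, had 1053, 1199, 1636 and 2738 CPM in cKO RV and 3255 to 5258 (median 4329) in WT RV. In cKO LV it had 1129, 1908, 2177 and 2298 CPM and in WT LV 3202 to 4812 (median 3748), so the groups did not overlap in either ventricle. The log2 difference was -1.35 (SE 0.24, adjusted p = 3.84e-04) in RV and -1.06 (SE 0.19, adjusted p = 3.70e-04) in LV. Tnnt1, the slow skeletal troponin T, did not rise: it had 0.501, 1.804, 2.15 and 3.20 CPM in cKO RV against 3.55 to 8.73 in WT RV (log2 difference -1.55, SE 0.39, adjusted p = 0.0048). In cKO LV it had 2.27 to 3.57 CPM against 3.58 to 6.97 in WT LV (-0.59, SE 0.25, adjusted p = 0.066). Troponin C, Tnnc1, had 189, 238, 345 and 515 CPM in cKO RV and 453 to 732 (median 577) in WT RV. It had 189, 228, 502 and 626 CPM in cKO LV and 944 to 1243 (median 1092) in WT LV. The differences were -0.87 (SE 0.23, adjusted p = 0.0062) and -1.49 (SE 0.27, adjusted p = 3.44e-04), with an overlap by 1 library in RV and none in LV.

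The tropomyosins moved apart from each other. Tpm1, the adult alpha tropomyosin, had 713, 834, 1072 and 1551 CPM in cKO RV and 1830 to 2970 (median 2474) in WT RV. In LV it had 764, 930, 1449 and 1590 CPM in cKO and 3699 to 4781 (median 4170) in WT. The differences were -1.28 (SE 0.20, adjusted p = 1.50e-04) and -1.86 (SE 0.20, adjusted p = 6.01e-06). Tpm3 went the other way, with 247, 260, 279 and 418 CPM in cKO RV against 102 to 139 (median 117) in WT RV, and 224, 234, 391 and 525 CPM in cKO LV against 100.0 to 123 (median 112) in WT LV. Every cKO library lay above every WT library, and the differences were 1.32 (SE 0.13, adjusted p = 2.97e-06) and 1.61 (SE 0.18, adjusted p = 7.40e-06), levels 2.50 and 3.05 times higher. Tpm2, the beta tropomyosin, had 17.0 to 35.5 CPM in cKO RV and 13.7 to 51.0 in WT RV (difference 0.13, SE 0.29, adjusted p = 0.75). In LV it had 24.3 to 58.5 CPM in cKO and 17.7 to 34.3 in WT (0.52, SE 0.23, adjusted p = 0.071), and without cKO_3217 the LV difference was 0.66 (adjusted p = 0.034).

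Markers of several cell types moved with these differences. A list of 10 cardiomyocyte markers that holds no member summed to 37138 to 96449 CPM in cKO RV and 111845 to 158094 in WT RV, and to 36014 to 81342 in cKO LV and 158727 to 186095 in WT LV. Of these 10, 9 were lower in cKO RV and 10 in cKO LV, with a median log2 difference of -1.09 and -1.50. The 6 fibroblast and matrix markers summed to 5466 to 11160 CPM in cKO RV against 768 to 1405 in WT RV, and to 3000 to 7553 in cKO LV against 911 to 1417 in WT LV. The 4 measured macrophage markers summed to 414 to 837 CPM in cKO RV against 122 to 176 in WT RV, and 4 of 4 were higher in each ventricle. Endothelial and smooth muscle marker sums overlapped with WT in both ventricles. In cKO RV they were 1005 to 1612 and 386 to 601 CPM, against 1032 to 1523 and 463 to 689 in WT RV. The 6 atrial markers summed to 270 to 669 CPM (median 383) in cKO RV. In WT RV they summed to 14.5 to 751 (median 33.8), and the 751 was that of WT_5819. In cKO LV they summed to 348 to 810, above the 15.8 to 80.03 of WT LV. Only 3 of the 6 could be tested in RV, where 1 was called, and 2 in LV, where 2 were called. Sln, 1 of the 6, was at 0 in all cKO RV libraries, so the sums rest on few of these genes. In tissue RNA fewer cardiomyocytes and less thin filament RNA per cardiomyocyte cannot be told apart, and the source of the added Tpm3 was not tested.

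**Figure D2:**
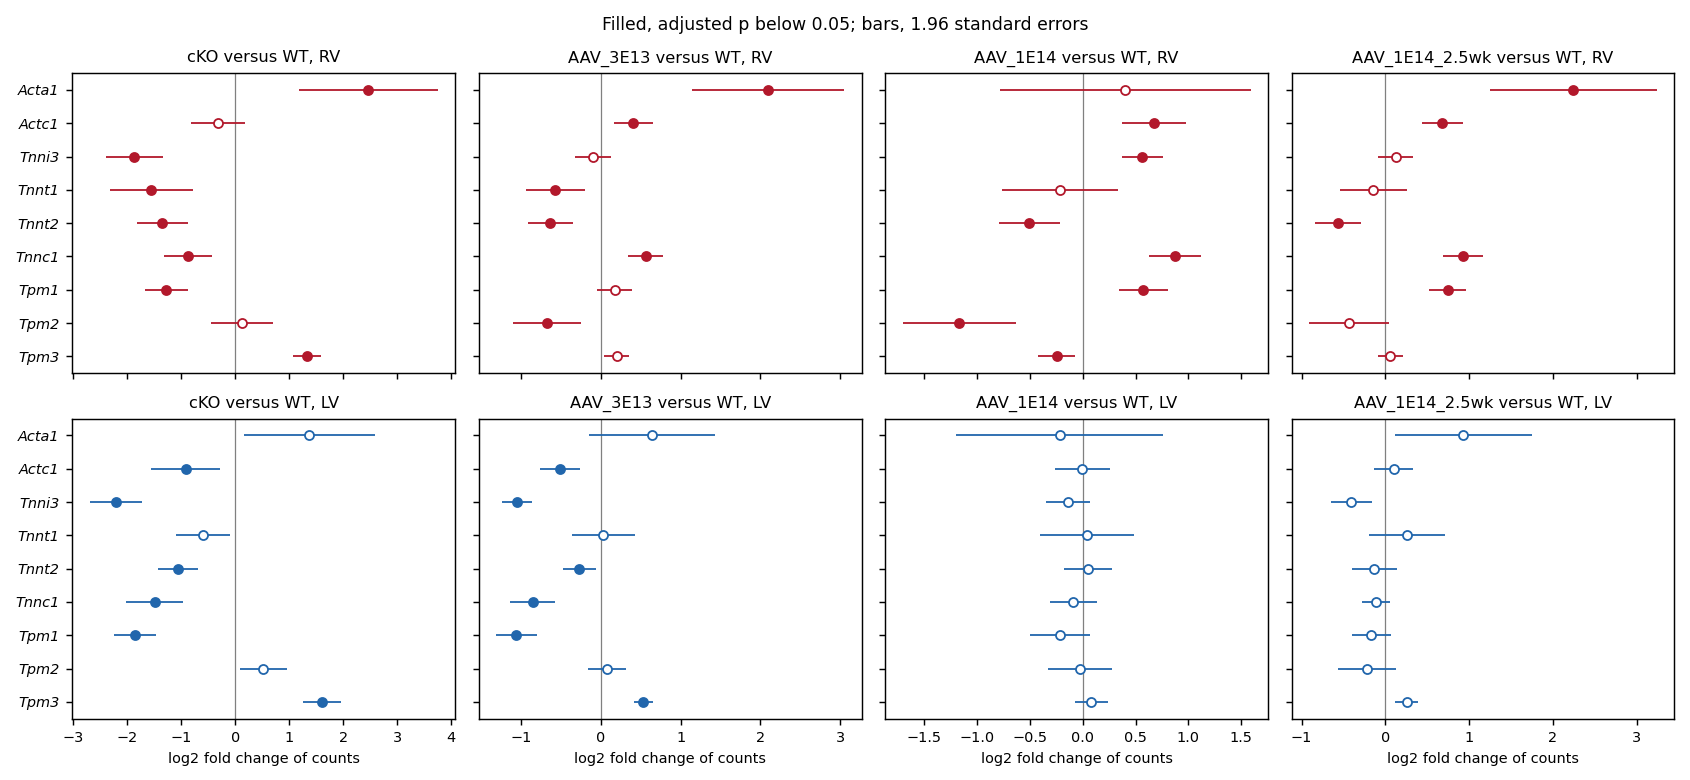
Log2 fold change of counts against WT (x axis, with its own range in each column) for the 9 tested thin filament genes in RV and LV, 1 panel per group and ventricle. Filled points passed an adjusted p below 0.05, and bars span about 2 standard errors on each side. In cKO Tnni3 and Tpm1 lie furthest to the left in LV, and in AAV_1E14 and AAV_1E14_2.5wk LV no point is filled.

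Shares within each isoform family were then taken from TPM, per library. They set a fetal or skeletal isoform against its adult cardiac partner. This sets aside the cardiomyocyte share of the tissue only where cardiomyocytes alone make both isoforms. Tpm3 is also made by other cells, and the cells that made Tpm2 were not tested. Shares are described without a test. Tpm3 made up 21.0% ± 7.66 (SD, n = 4) of tropomyosin TPM in cKO RV, with 12.5% to 30.2%, and 4.17% ± 1.04 (n = 9) in WT RV, with 2.85% to 5.81%. In LV the share was 20.04% ± 9.52 (n = 4) in cKO, with 12.6% to 34.0%, and 2.03% ± 0.359 (n = 9) in WT, with 1.66% to 2.63%. The groups did not overlap. Total tropomyosin fell in the same libraries, from a median of 3059 TPM in WT RV to 1307 in cKO RV and from 5829.9 to 1781.5 in LV. Tpm2 reached 1.62% ± 0.678 (n = 4) in cKO RV and 0.659% ± 0.329 (n = 9) in WT RV, and 1.97% ± 1.12 and 0.384% ± 0.0745 in LV. The Tpm2 level itself was not called in either ventricle, while Tpm1 was lower in both.

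Acta1 took 2.06% ± 1.46 (SD, n = 4) of alpha actin TPM in cKO RV and 0.367% ± 0.274 (n = 9) in WT RV. In LV it took 2.91% ± 1.84 in cKO and 0.635% ± 0.366 in WT. The cKO LV shares (1.60% to 5.61%) lay above those of all WT LV libraries (0.178% to 1.27%), and 2 of the 4 cKO RV libraries, at 0.814% and 0.874%, lay within the WT RV range (0.0865% to 0.953%). The Tnni1 share of troponin I was 0.0312% to 0.128% in cKO RV, above the 0 to 0.00776% of WT RV, and 0 to 0.0659% in cKO LV beside 0 to 0.00952% in WT LV, with Tnni3 lower in the same cKO libraries. Tnnt1 made 0.228% ± 0.111 of troponin T TPM in cKO RV beside 0.238% ± 0.0530 in WT RV, and 0.290% ± 0.0406 in cKO LV beside 0.222% ± 0.0563 in WT LV. So Actc1, Tnni3, Tnnt2 and Tpm1 remained the main isoform of their family in every library, and the mean share that differed most between cKO and WT in percentage points was that of Tpm3.

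**Figure D3:**
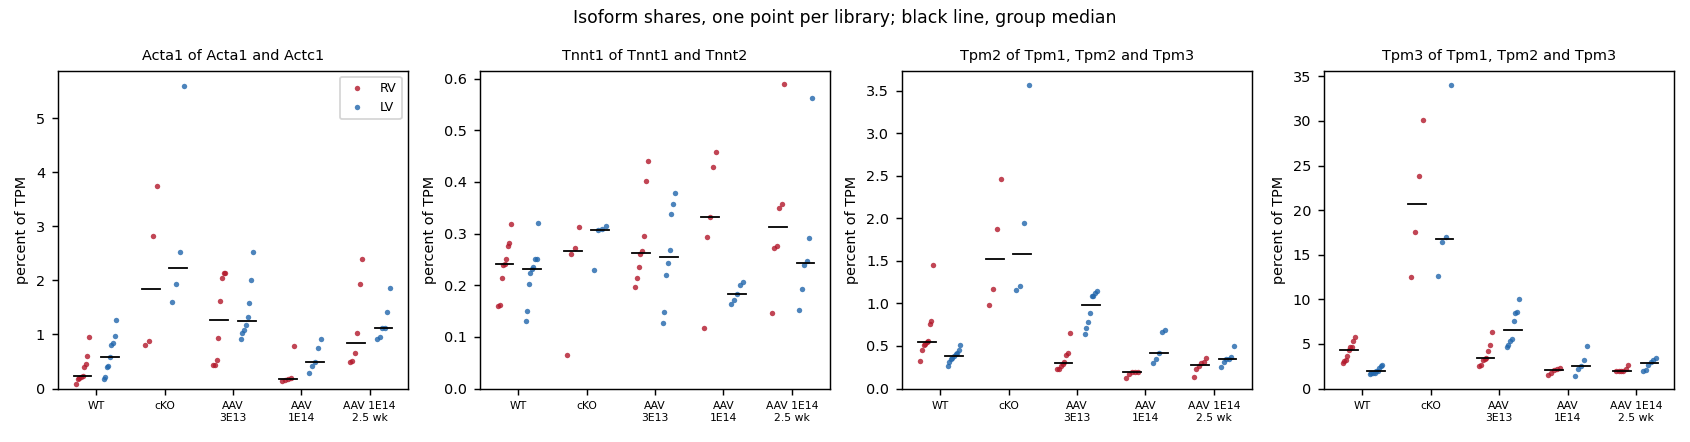
Percent of the TPM of each isoform family (y axis) that was Acta1, Tnnt1, Tpm2 or Tpm3, with 1 point per library (red, RV, and blue, LV) and a black line at each group median. The Tpm3 share of all cKO libraries (12.5% to 34.0%) lies above that of all other libraries, and the Tnnt1 shares of the groups overlap.

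The next comparisons asked how far the thin filament transcripts of vector-treated cKO animals differed from WT. These comparisons all share the WT libraries. At the lower dose the ventricles differed from each other. In AAV_3E13 LV Tnni3, Tnnc1, Tpm1, Actc1 and Tnnt2 were lower than in WT and Tpm3 was higher, which makes 6 of 9 members against 39.2% of all genes (19.9% higher and 19.2% lower). In AAV_3E13 RV Acta1, Actc1 and Tnnc1 were higher and Tnnt1, Tnnt2 and Tpm2 lower, 6 of 9 members against 21.8% of all genes (11.8% higher and 10% lower).

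In AAV_3E13 LV Tnni3 had 1252 to 1979 CPM (median 1584, n = 8) (log2 difference -1.06, SE 0.10, adjusted p = 4.94e-07). Tpm1 had 1316 to 2774 CPM (median 2044) (-1.06, SE 0.13, adjusted p = 5.67e-06). Tnnc1 with 379 to 899 CPM (median 606) (-0.85, SE 0.14, adjusted p = 1.54e-04). None of the 3 reached the lowest WT LV library. Actc1 had 2265 to 4735 CPM (median 3913) and overlapped with WT LV (-0.52, SE 0.13, adjusted p = 0.0038), as did Tnnt2 with 2326 to 3805 CPM (-0.27, SE 0.10, adjusted p = 0.046). Without WT_5819 the Tnnt2 difference was -0.22 (adjusted p = 0.087). Tpm3 had 137 to 171 CPM (median 161), above all WT LV libraries (0.53, SE 0.06, adjusted p = 3.31e-06), and its share of tropomyosin was 6.88% ± 2.07 (SD, n = 8). Acta1 had 34.6 to 121 CPM (0.64, SE 0.40, adjusted p = 0.22). Cardiomyocyte markers moved with these values: 9 of the 10 were lower in AAV_3E13 LV, where they summed to 101187 to 133273 CPM, below all WT LV libraries. Of the other lists, 5 of 6 fibroblast and matrix markers (1456 to 3162 CPM against 911 to 1417 in WT LV), 4 of 4 macrophage and 4 of 4 endothelial markers were higher. Atrial markers summed to 119 to 476 CPM, above the 15.8 to 80.03 of WT LV, and of these 6 genes 2 could be tested and 2 were called. The part of these in the lower cardiac members and the higher Tpm3 was not tested.

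In AAV_3E13 RV Acta1 had 21.7 to 138 CPM (median 61.8, n = 8), with 3 libraries at 21.7 to 28.3 and 3 at 118 to 138, and overlapped with WT RV (2.10, SE 0.49, adjusted p = 0.0058). Tnnc1 had 629 to 1033 CPM (median 896) against 453 to 732 in WT RV (0.56, SE 0.11, adjusted p = 0.0021), and Actc1 3695 to 5802 CPM against 2804 to 5208 (0.41, SE 0.12, adjusted p = 0.024). Tnnt2 had 1754 to 3739 CPM (median 2611) against 3255 to 5258 (-0.63, SE 0.14, adjusted p = 0.0050). Tpm2 had 10.7 to 21.3 CPM against 13.7 to 51.0 (-0.67, SE 0.22, adjusted p = 0.033). Tnnt1 had 2.99 to 5.01 CPM against 3.55 to 8.73 (-0.57, SE 0.19, adjusted p = 0.038), and without WT_5819 its difference was -0.54 (adjusted p = 0.065). Tnni3 had 1920 to 3135 CPM (-0.10, SE 0.11, adjusted p = 0.58), Tpm1 2238 to 3594 (0.17, SE 0.11, adjusted p = 0.27) and Tpm3 128 to 169 (0.20, SE 0.08, adjusted p = 0.074). Beside these values 6 of 6 fibroblast and matrix markers were higher (1530 to 3269 CPM against 768 to 1405 in WT RV) and 4 of 4 endothelial markers lower, while of the 10 cardiomyocyte markers 1 was higher and 1 lower. Their part in the result was not tested.

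At 1e14 vg per kg no member was called against WT in LV, in either of the groups dosed at this level. In AAV_1E14 LV 0 of 9 members passed with edgeR, 0 had an unadjusted p below 0.05 and 0 passed with DESeq2, while 0.00750% of all genes were called. In AAV_1E14_2.5wk LV 0 of 9 passed with edgeR, 3 had an unadjusted p below 0.05 and 2 (Tnni3 and Tpm3) passed with DESeq2, while 1.49% of all genes were called. The 5 AAV_1E14 LV libraries had 2364, 2714, 2930, 3032 and 3999 CPM of Tnni3 (log2 difference from WT -0.14, SE 0.11, adjusted p = 0.93), and 2319, 3009, 3780, 3832 and 5383 CPM of Tpm1 (-0.21, SE 0.15, adjusted p = 0.93). They had 98.9 to 130 CPM of Tpm3 (0.08, SE 0.08, adjusted p = 0.94). The 6 AAV_1E14_2.5wk LV libraries had 1489 to 3202 CPM of Tnni3 (median 2539, difference -0.41, SE 0.13, adjusted p = 0.11) and 120 to 149 CPM of Tpm3 (0.25, SE 0.07, adjusted p = 0.070). Without AAV_1E14_2.5wk_5814 the Tnni3 difference was -0.49 (adjusted p = 0.048). Acta1 had 53.5 to 129 CPM in AAV_1E14_2.5wk LV (0.93, SE 0.42, adjusted p = 0.27) and 12.2 to 60.7 in AAV_1E14 LV (-0.22, SE 0.50, adjusted p = 0.98).

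In RV both of these groups differed from WT at many members. In AAV_1E14 RV 7 of 9 were called, 4 higher (Actc1, Tnni3, Tnnc1 and Tpm1) and 3 lower (Tnnt2, Tpm2 and Tpm3), against 29.5% of all genes. In AAV_1E14_2.5wk RV 5 were called, 4 higher (Acta1, Actc1, Tnnc1 and Tpm1) and 1 lower (Tnnt2), against 36.3% of all genes. Tnnc1 had 938, 949, 1022, 1290 and 1294 CPM in AAV_1E14 RV (0.87, SE 0.13, adjusted p = 3.34e-04) and 885 to 1377 in AAV_1E14_2.5wk RV (0.93, SE 0.12, adjusted p = 4.04e-05), all above the 453 to 732 of WT RV. Tpm1 had 3027, 3508, 3999.7, 4193 and 4429 CPM in AAV_1E14 RV (0.57, SE 0.12, adjusted p = 0.0024) and 3611 to 5184 in AAV_1E14_2.5wk RV (0.74, SE 0.11, adjusted p = 1.16e-04), again above all WT RV libraries. Actc1 had 4524, 5243, 5417, 6414 and 8148 CPM in AAV_1E14 RV and 5145 to 6668 in AAV_1E14_2.5wk RV, and the lowest library of each lay within the WT range (0.68 in both, adjusted p = 0.0043 and 5.93e-04).

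Tnni3 had 3589, 3598, 3726, 4152 and 4469 CPM in AAV_1E14 RV, above all WT RV libraries (0.56, SE 0.10, adjusted p = 8.64e-04), and 2433 to 3771 in AAV_1E14_2.5wk RV (0.12, SE 0.11, adjusted p = 0.40). Tnnt2 was the cardiac member that was low in RV of every vector group, with 2157, 2508, 3411, 3488 and 3628 CPM in AAV_1E14 RV (-0.50, SE 0.15, adjusted p = 0.017) and 1957 to 3582 in AAV_1E14_2.5wk RV (-0.57, SE 0.14, adjusted p = 0.0048). The AAV_1E14 call was lost without AAV_1E14_2034 (-0.44, adjusted p = 0.059) or AAV_1E14_5726 (-0.40, adjusted p = 0.053). The vector expresses Pkp2 from a cardiac troponin T promoter, and a relation to endogenous Tnnt2 was not tested. Tpm2 had 7.74 to 12.9 CPM in AAV_1E14 RV, below all WT RV libraries (-1.17, SE 0.27, adjusted p = 0.0049). Tpm3 had 90.1 to 115 CPM in AAV_1E14 RV (-0.25, SE 0.09, adjusted p = 0.049), a call that was lost without any 1 of WT_5819 (-0.24, adjusted p = 0.074) and AAV_1E14_2034, AAV_1E14_5726, AAV_1E14_5822 and AAV_1E14_5825 (-0.20 to -0.26, adjusted p = 0.065 to 0.14). Acta1 had 28.2 to 170 CPM (median 56.0) in AAV_1E14_2.5wk RV (2.24, SE 0.51, adjusted p = 0.0026). In AAV_1E14 RV it had 7.01, 10.6, 11.2 and 11.3 CPM in 4 libraries and 72.8 in AAV_1E14_5726 (0.40, SE 0.61, adjusted p = 0.65).

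Several measures of the WT RV libraries moved with these RV results. The cardiomyocyte markers summed to 111845 to 158094 CPM in WT RV, and to 156605 to 189045 in AAV_1E14 RV and 128606 to 178739 in AAV_1E14_2.5wk RV, and 9 of the 10 were higher in AAV_1E14 RV than in WT RV. The 4 endothelial markers summed to 1032 to 1523 CPM in WT RV, 866 to 1113 in AAV_1E14 RV and 808 to 1091 in AAV_1E14_2.5wk RV, and 4 of 4 were lower in each of these vector groups. In AAV_1E14_2.5wk RV 5 of 10 cardiomyocyte and 5 of 6 fibroblast and matrix markers were higher. Atrial markers summed to 40.04 to 719 CPM there, and of these 6 genes 3 could be tested and 1 was called. The median log2 effective transcript length of a library relative to the series was 0.0196 to 0.0693 in WT RV and -0.0842 to 0.0190 in WT LV, and among the libraries of the other groups RV of AAV_1E14_5726 stood highest with 0.0680, so the WT RV range overlapped with others. The part of these in the RV differences was not tested.

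Against untreated cKO the vector groups had more of the adult cardiac isoforms and less Tpm3. These comparisons share the 4 cKO animals, and age cannot be told apart from treatment in them. In RV Actc1, Tnni3, Tnnt1, Tnnt2, Tnnc1 and Tpm1 were higher and Tpm3 lower in all 3 vector groups, and Tpm2 was lower in AAV_3E13 and AAV_1E14. This made 8 of 9 members in AAV_3E13 (42.0% of all genes), 8 in AAV_1E14 (50.6%) and 7 in AAV_1E14_2.5wk (47.9%). In LV Tnni3, Tnnt2 and Tpm1 were higher and Tpm3 lower in all 3 groups, and Tnnc1 was higher in the groups dosed at 1e14. This made 4 members in AAV_3E13 (18.0% of all genes), 5 in AAV_1E14 (35.4%) and 5 in AAV_1E14_2.5wk (33.3%). Markers of cell types moved with these calls. In RV 8 of 10 cardiomyocyte markers were higher than in cKO in AAV_3E13, 9 in AAV_1E14 and 9 in AAV_1E14_2.5wk, and in LV 5, 10 and 10. In each of the 6 comparisons 4 of 4 macrophage markers were lower, and 3 of 6 fibroblast and matrix markers were lower. Their part in the result was not tested. By the unequal-variance test on log2(TPM + 1) 3, 5 and 4 members were called in RV and 0, 1 and 1 in LV. The shares of all genes above are those of edgeR. That of the unequal-variance test is not given, so the lower counts need not be particular to the members.

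The rise of Tnni3 over cKO was 1.78 (SE 0.30, adjusted p = 3.94e-04) in AAV_3E13 RV, 2.48 (SE 0.34, adjusted p = 1.53e-04) in AAV_1E14 RV and 2.02 (SE 0.32, adjusted p = 4.07e-04) in AAV_1E14_2.5wk RV on the log2 scale. In LV it was 1.10 (SE 0.25), 2.04 (SE 0.32) and 1.7995 (SE 0.32), with adjusted p of 0.011, 0.0014 and 0.0021. Tpm3 fell by 1.11, 1.51 and 1.23 in RV and by 1.126, 1.55 and 1.36 in LV, and no library of a vector group reached the lowest cKO library of its ventricle. Acta1 was not called against cKO in any vector group, with log2 differences from -2.001 (SE 0.87, adjusted p = 0.075) in AAV_1E14 RV to -0.18 (SE 0.75, adjusted p = 0.86) in AAV_1E14_2.5wk RV. In AAV_1E14 RV it was called without AAV_1E14_5726 (-3.17, adjusted p = 0.0079), without cKO_2006 (-2.34, adjusted p = 0.044) or without cKO_2052 (-2.35, adjusted p = 0.046). In AAV_1E14 LV it was called without cKO_2006 (-1.964, adjusted p = 0.024) or cKO_2052 (-1.90, adjusted p = 0.045).

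Several of these calls rested on the choice of animals. In AAV_3E13 RV, Actc1 (0.75, SE 0.26, adjusted p = 0.031), Tnnt1 (1.00, SE 0.38, adjusted p = 0.04998) and Tnnt2 (0.73, SE 0.27, adjusted p = 0.045) were each lost without cKO_2006, cKO_2052 or cKO_3217. They then had differences of 0.57 to 0.76, 0.68 to 1.06 and 0.57 to 0.73. In AAV_1E14 RV the call of Tnnt1 (1.39, SE 0.52, adjusted p = 0.042) was lost without any of 7 animals, cKO_2006, cKO_2052 and cKO_3217 and AAV_1E14_2034, AAV_1E14_5726, AAV_1E14_5822 and AAV_1E14_5825, with differences of 1.07 to 1.46. The call of Tnnt2 there (0.90, SE 0.30, adjusted p = 0.025) was lost without any of 6, cKO_2006, cKO_2052 and cKO_3217 and AAV_1E14_2043, AAV_1E14_5822 and AAV_1E14_5825 (0.74 to 0.90), and that of Actc1 (1.06, SE 0.32, adjusted p = 0.018) without cKO_2052 (0.87, adjusted p = 0.054). In AAV_1E14_2.5wk RV Tnnt2 (0.82, SE 0.28, adjusted p = 0.031) was lost without cKO_2006, cKO_2052 or cKO_3217 or AAV_1E14_2.5wk_5810 (0.65 to 0.82). In AAV_3E13 LV Tpm1 (0.75, SE 0.24, adjusted p = 0.047) was lost without cKO_2006 or cKO_2052 (0.63 and 0.66, adjusted p = 0.14 and 0.10). Tpm2 of LV was called lower in AAV_3E13 (-0.63, adjusted p = 0.034) and AAV_1E14_2.5wk (-0.90, adjusted p = 0.037), and Tpm2 of RV in AAV_1E14_2.5wk (-0.67, adjusted p = 0.029), only without cKO_3217. Actc1 of LV was called higher without cKO_3213 in AAV_1E14 (1.38, adjusted p = 0.018) and AAV_1E14_2.5wk (1.51, adjusted p = 0.0082), and Tnnt1 of AAV_1E14_2.5wk LV without AAV_1E14_2.5wk_5810 (1.01, adjusted p = 0.016). The differences of Tnni3, Tnnc1 and Tpm3 that were called in the full set stayed called in each of these leave-one-out fits.

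The effect of the dose was read between AAV_1E14 and AAV_3E13, which by label had both been dosed before tamoxifen. In LV the higher dose went with more Tnni3 (log2 difference 0.91, SE 0.14, adjusted p = 7.87e-04), Tpm1 (0.84, SE 0.20, adjusted p = 0.010), Tnnc1 (0.76, SE 0.20, adjusted p = 0.016) and Actc1 (0.51, SE 0.16, adjusted p = 0.039), and with less Tpm3 (-0.46, SE 0.08, adjusted p = 0.0018). These 5 of 9 members stand beside 19.0% of all genes. In RV Tnni3 was higher (0.65, SE 0.13, adjusted p = 0.0078) and Tpm3 lower (-0.46, SE 0.09, adjusted p = 0.0065), 2 of 9 beside 9.97% of all genes. Neither Tnni3 nor Tpm3 overlapped between the doses in either ventricle, and overlap was not counted over all genes. With the higher dose 9 of 10 cardiomyocyte markers were higher and 5 of 6 fibroblast and matrix markers lower in LV, and 6 of 10 and 5 of 6 in RV, and their part in the result was not tested. The Actc1 call of LV was lost without AAV_1E14_2034, AAV_1E14_5726, AAV_1E14_5822 or AAV_1E14_5825 (0.44 to 0.51, adjusted p = 0.075 to 0.11), and that of Tnnc1 without AAV_1E14_2034 (0.68, adjusted p = 0.057). Without AAV_1E14_5726, Acta1 (-2.88, adjusted p = 0.013, against -1.70 and 0.10 with it) and Tpm1 (0.46, adjusted p = 0.042) were called in RV too.

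The effect of the time of dosing was read between AAV_1E14_2.5wk and AAV_1E14. In LV no member was called with edgeR, 1 had an unadjusted p below 0.05 and none was called with DESeq2, and 0% of all genes were called with edgeR. In RV the late group had less Tnni3 (-0.43, SE 0.11, adjusted p = 0.033) and more Tpm2 (0.75, SE 0.19, adjusted p = 0.031) and Tpm3 (0.32, SE 0.08, adjusted p = 0.025), 3 of 9 members beside 8.93% of all genes. Each of the 3 calls was lost when 1 of several animals was left out. Tnni3 had -0.38 to -0.41 (adjusted p = 0.068 to 0.078) without AAV_1E14_2.5wk_5810 or AAV_1E14_2.5wk_5814 or AAV_1E14_2034 or AAV_1E14_5822. Tpm2 had 0.66 to 0.80 (adjusted p = 0.0504 to 0.0753) without AAV_1E14_2.5wk_5810 or AAV_1E14_2.5wk_5814 or AAV_1E14_2034, AAV_1E14_5726, AAV_1E14_5822 or AAV_1E14_5825. Tpm3 had 0.27 to 0.32 (adjusted p = 0.051 to 0.060) without AAV_1E14_2.5wk_5814 or AAV_1E14_2034, AAV_1E14_5726 or AAV_1E14_5822. Acta1 of RV had a difference of 1.85 (SE 0.67, adjusted p = 0.10), and 3.03 (adjusted p = 0.019) without AAV_1E14_5726.

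The ventricles were then compared within each group, and the main fit entered both libraries of an animal as separate samples. In WT, RV had less Tnnc1 (log2 difference RV over LV -0.86, SE 0.09, adjusted p = 5.25e-06) and Tpm1 (-0.74, SE 0.09, adjusted p = 1.38e-05) than LV, with no overlap of the 9 RV and 9 LV libraries. It also had less Actc1 (-0.57, SE 0.12, adjusted p = 0.0014), Tnni3 (-0.34, SE 0.08, adjusted p = 0.0032) and Acta1 (-1.34, SE 0.48, adjusted p = 0.041), which makes 5 of 9 members beside 27.7% of all genes. Without WT_5819 the Acta1 difference was -1.17 (adjusted p = 0.099). The cardiomyocyte marker sums of WT RV (111845 to 158094 CPM) and WT LV (158727 to 186095) did not overlap either. In cKO no member was called with edgeR or DESeq2, and none had an unadjusted p below 0.05, with 4 animals and 0.00726% of all genes called.

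In AAV_3E13 the ventricles stood the other way round for 3 cardiac members. Tnni3 (0.62, SE 0.13, adjusted p = 0.0035), Tnnc1 (0.56, SE 0.16, adjusted p = 0.021) and Tpm1 (0.49, SE 0.15, adjusted p = 0.024) were higher in RV, and Tpm2 was lower (-0.86, SE 0.12, adjusted p = 4.53e-04), 4 of 9 members beside 20.2% of all genes. With the animal as a block Actc1 (0.37, adjusted p = 0.032) and Tpm3 (-0.21, adjusted p = 0.037) were called too. In AAV_1E14 Tpm2 alone was called, lower in RV (-1.25, SE 0.17, adjusted p = 0.0070), 1 of 9 beside 2.95% of all genes. This call was lost without AAV_1E14_5825 (-1.24, adjusted p = 0.053), and Tnni3 was called when the animal was a block (0.37, adjusted p = 0.038). In AAV_1E14_2.5wk none was called with edgeR or DESeq2 and none had an unadjusted p below 0.05, beside 0.0226% of all genes.

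**Figure D4:**
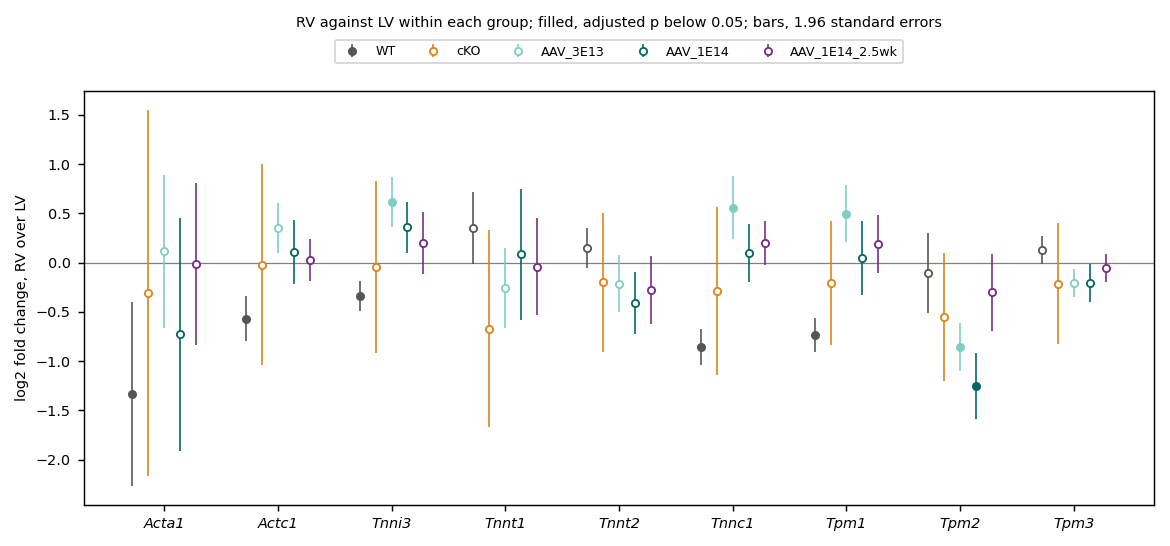
Log2 fold change of RV over LV (y axis) for the 9 tested thin filament genes, with 1 colour per group. Filled points passed an adjusted p below 0.05 and bars span about 2 standard errors on each side. Tnnc1 and Tpm1 lie below 0 in WT (-0.86 and -0.74) and above 0 in AAV_3E13 (0.56 and 0.49).

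Whether the change from WT differed between the ventricles was tested as an interaction. In AAV_3E13 the change was more positive in RV than in LV by 1.42 for Tnnc1 (SE 0.19, adjusted p = 8.24e-07), 1.24 for Tpm1 (SE 0.17, adjusted p = 1.43e-06), 0.97 for Tnni3 (SE 0.15, adjusted p = 6.73e-06) and 0.93 for Actc1 (SE 0.18, adjusted p = 1.26e-04). It was more negative by 0.74 for Tpm2 and by 0.32 for Tpm3, so 6 of 9 members were called beside 36.9% of all genes. In AAV_1E14 the same 4 cardiac members had a more positive change in RV (Tnnc1 0.96, Tpm1 0.78, Tnni3 0.70 and Actc1 0.68), and Tpm2 (-1.14), Tnnt2 (-0.55) and Tpm3 (-0.33) a more negative one, 7 of 9 members beside 20% of all genes. Without AAV_1E14_5726 the calls of Actc1 (0.57, adjusted p = 0.079), Tpm2 (-0.98, adjusted p = 0.057), Tnnt2 (-0.49, adjusted p = 0.085) and Tpm3 (-0.28, adjusted p = 0.14) were lost, that of Tnnt2 also without AAV_1E14_2034, AAV_1E14_5822 or AAV_1E14_5825 (-0.43 to -0.57, adjusted p = 0.056 to 0.14) and that of Tpm3 also without WT_5819 or AAV_1E14_2043, AAV_1E14_5822 or AAV_1E14_5825 (-0.31 to -0.33, adjusted p = 0.058 to 0.10). In AAV_1E14_2.5wk Tnnc1 (1.06), Tpm1 (0.94), Actc1 (0.60) and Tnni3 (0.55) were called, 4 of 9 members beside 18.4% of all genes. Tnnt1 was called in AAV_3E13 without WT_5819 (-0.67, adjusted p = 0.046) and Tnnt2 in AAV_1E14_2.5wk without AAV_1E14_2.5wk_5810 (-0.55, adjusted p = 0.046).

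In cKO no interaction was called with edgeR or DESeq2, 2 members had an unadjusted p below 0.05, and 0.0272% of all genes were called. With the animal as a block Tnnc1 (0.67, adjusted p = 0.036) and Tpm1 (0.56, adjusted p = 0.036) were called, a smaller fall in RV than in LV. The block also called Acta1 in AAV_3E13 (1.32, adjusted p = 0.0047) and AAV_1E14_2.5wk (1.10, adjusted p = 0.040). The AAV_1E14_2.5wk block fit kept AAV_1E14_2.5wk_5814 as a pair, although its RV and LV libraries differed in Xist and Y-linked genes. All these interactions share the WT libraries, of which the RV and LV ones did not overlap in effective length or cardiomyocyte marker sums, as given above.

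The deposited effective lengths gave a reading that is separate from the gene totals. A gene's effective length is the mean over its transcripts, weighted by their abundance, so it moves when longer or shorter transcripts are used, and it also carries Salmon's corrections for sequence, GC and positional bias in each library. Tpm1, which the annotation gives 80 transcripts, 44 of them protein coding with 887 to 2890 bases, was the member whose length differed in most comparisons. After each library was centred, Tpm1 was 14.98% longer in cKO LV than in WT LV (limma, adjusted p = 0.042) and 12.6% longer in AAV_3E13 LV (adjusted p = 0.023), with no overlap of libraries. In RV it was shorter than in WT by 11.8% in AAV_3E13 (adjusted p = 0.0054), 17.6% in AAV_1E14 (adjusted p = 0.0076) and 17.8% in AAV_1E14_2.5wk (adjusted p = 4.26e-05). The medians were 1305 bases in WT LV, 1529.5 in cKO LV and 1485 in AAV_3E13 LV, and 1490.5 in WT RV, 1591 in cKO RV, 1310.3 in AAV_3E13 RV, 1223 in AAV_1E14 RV and 1213 in AAV_1E14_2.5wk RV. The LV call of cKO was lost without cKO_2052, cKO_3213 or cKO_3217, at log2 differences of 0.20, 0.19 and 0.18 (adjusted p = 0.11, 0.094 and 0.105). When libraries were not centred, the Tpm1 calls of cKO LV and AAV_3E13 LV were both lost.

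Other members with a length call were found in RV. In cKO RV Acta1 (-9.67%, adjusted p = 0.0062) and Actc1 (-8.14%, adjusted p = 0.0059) were shorter and Tnni3 (13.3%, adjusted p = 0.0069) and Tnnc1 (10.03%, adjusted p = 0.0023) longer. This made 4 of 9 members beside 19.8% of all genes, and 1 (Tpm1) in cKO LV beside 1.21%. In AAV_3E13 RV 3 members were shorter (Acta1, Tnnt2 and Tpm1) beside 28.7% of all genes, of which the Tnnt2 call (-0.087 on the log2 scale) was lost without WT_5819 (-0.079, adjusted p = 0.061), and 1 was called in LV beside 0.221%. In AAV_1E14 RV 1 was called beside 3.73%, and without AAV_1E14_5726 Acta1 and Actc1 were called too, which makes 3. In AAV_1E14_2.5wk RV 5 were shorter (Acta1, Actc1, Tnnt2, Tpm1 and Tpm2) beside 37.9%, and 3 without WT_5819, when Tnnt2 and Tpm2 were lost. In LV of AAV_1E14 and of AAV_1E14_2.5wk no member was called with limma and none had an unadjusted p below 0.05, beside 0% of all genes in each. In neither ventricle was the part of transcript usage in the calls separated from that of bias correction.

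**Figure D5:**
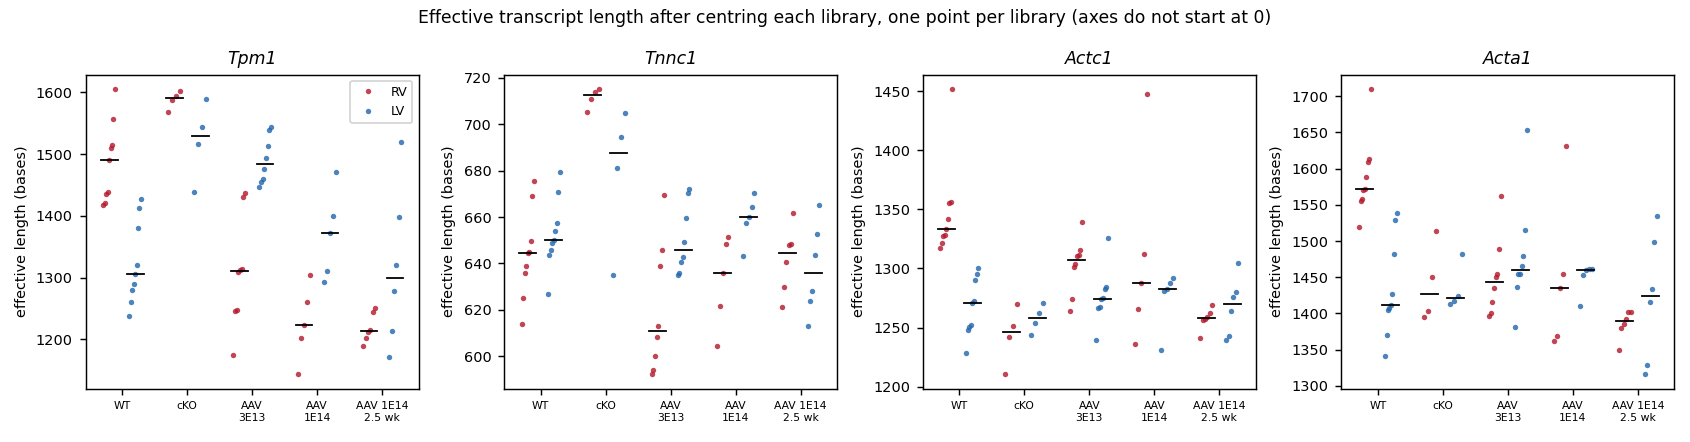
Effective transcript length in bases after centring each library (y axes do not start at 0) for Tpm1, Tnnc1, Actc1 and Acta1, with 1 point per library (red, RV, and blue, LV) and a black line at each group median. For Tpm1 the cKO LV and AAV_3E13 LV libraries lie above all WT LV libraries, and the RV libraries of AAV_1E14 and AAV_1E14_2.5wk lie below all WT RV libraries.

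Other genes of the thin filament were read from lists of related function. Among 18 genes for the length, capping and assembly of thin filaments, 4 were higher and 9 lower in cKO RV, and 3 higher and 9 lower in cKO LV, where 22.0% and 23.6% of all genes were higher and 20.3% and 23.0% lower. The lower ones with the smallest adjusted p were Nebl, Tmod4 and Cap2 in RV and Tmod4, Cap2 and Tmod1 in LV. Nebl (nebulette, a cardiac nebulin relative) had -1.27 (SE 0.17, adjusted p = 4.56e-05) in RV, and Tmod1 (tropomodulin, the cap of the pointed end) had -1.55 (SE 0.17, adjusted p = 7.21e-06) in LV. Cap2, a cyclase-associated protein that acts on actin, had -1.36 (SE 0.20) in RV and -2.01 (SE 0.18) in LV. The higher ones with the smallest adjusted p were Capza1 (a subunit of the barbed-end capping protein, 1.11, SE 0.14, adjusted p = 2.61e-05), Wdr1 and Xirp2 in RV, and Capza1, Tmod3 and Wdr1 in LV. These are genes of the cytoskeleton of many cells, apart from Xirp2, which striated muscle expresses. In AAV_3E13 LV 1 was higher and 11 lower, and in RV 9 were higher and 2 lower, beside 39.2% and 21.8% of all genes called in either direction. In AAV_1E14 RV 9 were higher and 1 lower, and in AAV_1E14_2.5wk RV 10 were higher and 0 lower, beside 29.5% and 36.3% of all genes, among them Cfl2 (muscle cofilin, 0.99 and 1.03) and Xirp2 (0.62 and 1.91). In LV 0 of 18 were called with edgeR in AAV_1E14 (0 with an unadjusted p below 0.05) and 0 in AAV_1E14_2.5wk (2 with an unadjusted p below 0.05).

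Of 8 other actin, troponin and tropomyosin genes, 5 could be tested in cKO RV and 4 in cKO LV. The cytoplasmic actins rose in cKO: Actb had 3115 CPM ± 898 (SD, n = 4) in cKO RV and 1061 ± 115 (n = 9) in WT RV (log2 difference 1.57, SE 0.15, adjusted p = 2.12e-06), and Actg1 616 ± 81.5 and 288 ± 41.8 (1.11, SE 0.13, adjusted p = 9.39e-06). In LV the differences were 1.85 (SE 0.27) for Actb, 1.19 (SE 0.19) for Actg1 and 0.58 (SE 0.20, adjusted p = 0.026) for Tpm4, a tropomyosin of non-muscle cells. The fast skeletal troponins Tnni2, Tnnt3 and Tnnc2 passed the filter in neither ventricle. Of SRF and its cofactors, Srf itself had 0.14 (SE 0.17, adjusted p = 0.55) in cKO RV and -0.31 (SE 0.18, adjusted p = 0.17) in cKO LV, and Myocd, a cofactor of SRF in heart and smooth muscle, was lower in both (-0.74, SE 0.12, adjusted p = 2.05e-04, and -1.17, SE 0.13, adjusted p = 9.50e-06). Actb was higher in AAV_3E13 LV (0.60, SE 0.10) and lower in AAV_1E14 RV (-0.31, SE 0.10), and so was Actg1 (0.62 and -0.41).

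Last, the genes most like each member were sought by Pearson's r of mean log2 CPM over the 10 classes of group and ventricle, among 10114 genes with at least 10 CPM in some class. With 10 points that share libraries, r is a description. Tnni3 was nearest to Cox4i1 (a subunit of cytochrome c oxidase, r = 0.998) and Rxrg (0.998), Tnnc1 to Lpgat1 (0.998) and Pja2 (0.997), Tpm1 to Acyp2 (0.997) and Cdh2 (N-cadherin, 0.997), and Actc1 to Nek9 (0.997) and Eif4e3 (0.997). Tnnt2 was nearest to Rilp (0.978) and Kcnn2 (0.977). Tpm3 was nearest to Septin11 (a cytoskeletal septin, 0.996) and Gm1966 (0.995), and Acta1 to Pdlim1 (an actin-associated PDZ and LIM protein, 0.972) and B2m (the light chain of MHC class I, 0.969). The low members had looser neighbours: Tpm2 Gripap1 (0.970) and Bptf (0.966), Tnnt1 Taf1a (0.959) and Tmem57 (0.959), and Tnni1 Abhd12 (0.877) and Ebp (0.869).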

How the data were processed

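RNA from both ventricles of 32 mice was sequenced, and the deposited tables hold estimated counts, TPM and effective lengths per gene. According to the labels and the methods of the study, the authors trimmed the reads, quantified them against GRCm39 transcripts with Salmon (version 1.8.0) and summed transcripts to genes with tximport. The deposited estimated counts are not normalized, the TPM values were normalized by the authors for transcript length and library total, and the deposited effective lengths, in bases, are abundance-weighted means that include the bias corrections of the authors' Salmon runs. The labels speak of both poly(A) selection and ribosomal depletion, so the way RNA was selected is uncertain.

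Estimated counts were rounded, and the 37 mitochondrially encoded genes and 1 unnamed row (at most 0.00136% of a library) were removed. Totals were then 5341792 to 10238813 counts per library, and for abundant members the spread between animals, not counting error, sets the precision. TPM were rescaled after the same removal. Genes passing filterByExpr were tested with edgeR 4.0.16 (R 4.3.3; TMM, quasi-likelihood, Benjamini-Hochberg over all genes, threshold 0.05) in each ventricle alone. Ventricles were compared within a group, and the difference of changes was tested as an interaction. Log2 effective lengths, centred on each library's median, were tested with limma 3.58.1. Shares have no test. Overlap of ranges is described for the genes and marker sums named, without the share of all genes that did not overlap, so it is not a further test. Groups came from the labels, and each animal was 1 replicate per ventricle. For groups compared within a ventricle, p-values measure the spread between animals. The main fits between ventricles and of interactions entered both libraries of an animal without an animal term, so their p-values ignore the pairing. By label, RV and LV of an animal share its number and come from the same heart. For AAV_1E14_2.5wk_5814 this is uncertain, since Xist and Y-linked genes differed between its 2 libraries. Over the 32 animals the correlation of RV and LV deviations from the group means ran from -0.0805 (AAV_1E14_2.5wk_5814) to 0.668. It was over 0.1 in 25 and was highest with the own partner in 22. A fit with the animal as a block, which kept AAV_1E14_2.5wk_5814 as a pair, is given where it changes a call. CPM use TMM factors over all 64 libraries.

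All 10 members, Pkp2, up to 3 genes in each direction with the smallest adjusted p from each list of other genes, and for each member the 2 genes most like it over group means are named. The members and lists were chosen with earlier results of these data known. The edgeR and limma steps were tested on simulated data. DESeq2 1.42.0, other filters, scalings and pseudocounts, the unequal-variance test on log2 TPM that the study used, and leaving out 1 animal (each cKO and AAV_1E14 animal, WT_5819, AAV_1E14_2.5wk_5810 and AAV_1E14_2.5wk_5814) were tried as alternatives, and no other animal was left out. Promoters came from a RefSeq table on GRCm38.p6, and positions from GRCm39.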

Additional observations from a re-analysis of the deposited data

Results flagged for a closer look

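In groups of 4 to 9 libraries, 1 library stood far from the nearest of the others (Dixon's criterion) in 7 of 100 combinations of member, group and ventricle, where chance gives about 1 in 20. Acta1 was 72.8 CPM in RV of AAV_1E14_5726, with the next at 11.3, and this animal also decided whether Acta1 was called against AAV_3E13, cKO and AAV_1E14_2.5wk in RV. Tpm2 was 51.0 CPM in RV of WT_5819, with the next at 23.5, and this library also had the highest atrial marker sum of WT RV. Tnnt1 was 6.97 CPM in LV of WT_5819, with the next at 4.94. In its LV, AAV_1E14_2.5wk_5810 had the lowest Tnni3 (1489 CPM, next 2476) and the lowest Tnnt1 (2.20 CPM, next 4.82), and the highest atrial marker sum of that group. Tnni1 was 0.693 CPM in LV of AAV_3E13_2048, with the next at 0.138, and Tpm3 was 141 CPM in RV of AAV_1E14_2.5wk_5755, with the next at 127.

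In 17 cases the change from WT differed between the ventricles by the interaction test in edgeR. In AAV_3E13 these were Actc1 (0.93, adjusted p = 1.26e-04), Tnni3 (0.97, adjusted p = 6.73e-06), Tnnc1 (1.42, adjusted p = 8.24e-07), Tpm1 (1.24, adjusted p = 1.43e-06), Tpm2 (-0.74, adjusted p = 0.020) and Tpm3 (-0.32, adjusted p = 0.0076). In AAV_1E14 they were Actc1 (0.68, adjusted p = 0.024), Tnni3 (0.70, adjusted p = 0.0015), Tnnt2 (-0.55, adjusted p = 0.041), Tnnc1 (0.96, adjusted p = 5.28e-04), Tpm1 (0.78, adjusted p = 0.0053), Tpm2 (-1.14, adjusted p = 0.011) and Tpm3 (-0.33, adjusted p = 0.045). In AAV_1E14_2.5wk they were Actc1 (0.60, adjusted p = 0.012), Tnni3 (0.55, adjusted p = 0.017), Tnnc1 (1.06, adjusted p = 7.06e-05) and Tpm1 (0.94, adjusted p = 3.38e-04). All values are the log2 change in RV minus that in LV, and all 17 share the WT libraries. WT RV had the highest median effective length of the 10 classes of group and ventricle, with a range that overlapped other RV classes, and its cardiomyocyte marker sums did not overlap WT LV but overlapped AAV_3E13 RV, and the part of these was not tested.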

How the results depend on the processing

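No member reversed its direction where it was called. Of the alternatives for single members, 2766 left the outcome as it was, 51 gained a call and 205 lost one. The 2766 hold kept calls and also members that were called neither in the main fit nor in the alternative, so they are not a measure of kept calls. Of the counts of members called, 290 stayed within 1.5 times and 46 moved. Shares of all genes called under each alternative are not given here, so a changed count need not be particular to the members. The unequal-variance test on log2 TPM, with a pseudocount of 1 and of 0.1, called fewer: 3 and 2 members in cKO versus WT RV, 2 and 2 in LV, 3 and 3 in AAV_3E13 versus cKO RV and 0 and 0 in LV, 5 and 5 in AAV_1E14 versus cKO RV and 1 and 0 in LV, 4 and 4 in AAV_1E14_2.5wk versus cKO RV and 1 and 0 in LV, 1 and 1 in AAV_1E14 versus AAV_3E13 RV and 3 and 3 in LV, 0 and 0 in AAV_1E14_2.5wk versus AAV_1E14 RV, and 0 and 0 in RV versus LV of AAV_1E14. By it the Pkp2 level, cKO versus WT, RV had -1.53 and -1.56 (adjusted p = 0.060 and 0.062), and the Pkp2 level, cKO versus WT, LV -1.45 and -1.47 (adjusted p = 0.067 for both). DESeq2 called 2 members in AAV_1E14_2.5wk versus WT LV and 2 in RV versus LV of AAV_1E14. Without a filter on low counts 5 were called in AAV_3E13 versus cKO RV. With all 64 libraries in 1 fit, 8 were called in AAV_1E14_2.5wk versus cKO LV, 1 in AAV_1E14_2.5wk versus AAV_1E14 RV, 3 in RV versus LV of WT, and 4 and 2 by the interaction in AAV_1E14 and AAV_1E14_2.5wk. With the animal as a replicate block 2 were called in RV versus LV of AAV_1E14 and 2 by the interaction in cKO, and the other counts stayed within 1.5 times. For effective length without centring, counts were 0 in cKO LV, 6 in AAV_3E13 RV and 0 in AAV_3E13 LV, and with at least 100 counts 2 in AAV_1E14 RV. The cause was not tested. Leaving out 1 animal of cKO or AAV_1E14, WT_5819, AAV_1E14_2.5wk_5810 or AAV_1E14_2.5wk_5814, where it was part of the comparison, gave 0 to 1 members in AAV_1E14_2.5wk versus WT LV (1 without AAV_1E14_2.5wk_5814), 5 to 8 in AAV_3E13 versus cKO RV (5 without cKO_2006, cKO_2052 or cKO_3217), 2 to 4 in AAV_1E14 versus AAV_3E13 RV (4 without AAV_1E14_5726) and 3 to 5 in LV (3 without AAV_1E14_2034). It gave 0 to 3 in AAV_1E14_2.5wk versus AAV_1E14 RV (1 without AAV_1E14_2.5wk_5810, 0 without AAV_1E14_2.5wk_5814, AAV_1E14_2034 or AAV_1E14_5822), 0 to 1 in RV versus LV of AAV_1E14 (0 without AAV_1E14_5825) and 3 to 6 by the interaction in AAV_1E14 (3 without AAV_1E14_5726). By effective length it gave 0 to 1 in cKO LV, 1 to 3 in AAV_1E14 RV and 3 to 5 in AAV_1E14_2.5wk RV. The TPM scale moved the median of all genes by -0.14 to 0.29, the only scaling to move it by over 0.1. The shares moved by less than the spread between animals. With 4 cKO animals the comparisons with cKO rest on few hearts, and Tnni1 and Tnnt1 on few counts.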
